A study of Mus musculus with 16 samples.

Results

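The effect of the staggerer genotype in the thalamus was set against its effect in the cortex, probe by probe. Staggerer mice carry a spontaneous deletion in Rora, and RNA of these mice, labelled Stagerrer mutant, was hybridized against RNA of control mice of the same numbered litter, at postnatal days 5 to 6, in the C57BL/6 strain. The tissues were VB, the ventrobasal nucleus of the thalamus, and the somatosensory cortex, both cut out of 250 µm vibratome slices. All 16 arrays of the series entered the comparison, 8 per tissue, with 4 litters and 2 dye-swapped arrays per litter and tissue. A probe was a member if both arrays of the pair had a value in at least 3 litters of VB and in at least 3 litters of cortex, which held for 12445 of 24107 probes (9956 gene symbols). The litter was the replicate, and its genotype ratio in cortex was subtracted from that in VB. Whether a sample held 1 animal or a pool is not given in the sources used here.

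RORα, the product of Rora, is a nuclear receptor that binds DNA as a monomer at a site with the letters AGGTCA preceded by a stretch rich in A and T. It is known for the survival and differentiation of cerebellar Purkinje cells, which degenerate in staggerer mice. Sensory thalamic nuclei and layer 4 of the cortex both express Rora. In the first postnatal week the axons of VB neurons, which relay touch from the whiskers, form clusters in layer 4 known as barrels. The comparison therefore asks whether 1 and the same deletion is followed by the same transcript differences at both ends of this pathway. The deletion is present in every cell, so an effect in either tissue cannot be told apart from one that starts elsewhere. In dissected tissue, fewer cells of a type and less RNA per cell cannot be told apart either.

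Tissue and labelling coincided. Per the labels' protocols, cortex cDNA was made from 5 µg of RNA with aminoallyl nucleotides, and VB cDNA came from 500 ng after 14 cycles of template-switching PCR and was labelled with Klenow fragment. A difference between the tissues cannot be told apart from a difference between these methods. Ratios hold no level, so neither dissection could be checked against the markers of its tissue.

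The meaning of the deposited columns is not given in the sources used here, and each result below is therefore stated under 2 readings. In the first, the columns are taken as already turned, so that both arrays of a litter have the same genotype on top. The litter value is then the mean of the pair, and whether the mutant or the control is on top is unknown. In the second, every column is taken as Cy5 over Cy3. The litter value is then the array with mutant RNA in Cy5 minus its swap, divided by 2, and it runs as mutant over control. By construction the genotype effect of 1 reading is the dye effect of the other. Over all probes with both values, the swapped arrays of a litter had the same sign for 38.1% to 42.0% of probes in VB (Pearson r -0.467 to -0.275) and for 49.2% to 50.2% in cortex (-0.0769 to -0.0345).

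Transcripts that could mark the reading did not settle it. Xist, the RNA that silences 1 X chromosome in females, had opposite signs in the swapped arrays of all 3 VB litters with both values. The Xist ratios were -0.25, -0.20, -0.34 and -0.46 with mutant RNA in Cy5 and 0.39, 0.049 and 0.55 with mutant RNA in Cy3. In cortex the 3 litters with both values had negative Xist ratios in both arrays. These were -2.46, -2.03, -0.21 and -0.23 with the mutant in Cy5, where 4 arrays had a value, and -1.28, -0.33 and -0.61 with the mutant in Cy3. In a litter whose mutant and control RNA differ in sex, columns that follow the dyes give opposite signs and turned columns give 1 sign. Whether the RNA of a litter differed in sex was not tested, so the Xist signs do not decide between the readings. The tissue difference of Xist did not pass under either reading (0.79 turned, limma adjusted p = 0.41, and -0.27 as Cy5 over Cy3, adjusted p = 0.428). Of the Y-linked genes, Kdm5d, a histone demethylase, and Uty, a homologue of the demethylase UTX, were tested and their tissue differences did not pass. Kdm5d had -0.058 and -0.19 under the 2 readings, and Uty had -0.085 and 0.47. As Cy5 over Cy3 the Uty difference did pass with arrays scaled to 1 interquartile range (adjusted p = 0.0467) and with the 16 arrays kept apart (adjusted p = 0.0302). In VB litters 1 to 3, Kdm5d had -0.28, -0.021 and 0.30 with the mutant in Cy5 and 0.21, 0.11 and 0.20 in Cy3. In cortex litters 1, 2 and 4 it had 0.29, 0.62 and -0.17 against 0.013, 0.48 and -0.37. Uty had 0.23, 0.35, 0.016 and 0.335 against -0.50, 0.11, -0.26 and -0.35 in VB. In cortex litters 1, 3 and 4 Uty had 0.001, -0.42 and -0.033 against 0.43, 0.305 and 0.16. Eif2s3y, also Y-linked, had both arrays in cortex litters 1 and 4 alone and was not a member. It had 0.02, 0.535, 0.479 and 0.277 with the mutant in Cy5 against -0.016, -0.246, -0.102 and 0.142 in VB. In those cortex litters it had -0.328 and 0.046 against -0.635 and -0.182.

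The Rora probe itself showed no called tissue difference. As turned, its litter ratios were -0.20, -0.25, -0.080 and 0.0025 in VB and -0.16, -0.60 and -0.60 in cortex, a difference of 0.32 ± 0.15 log2 units (SE; limma adjusted p = 0.55). Read as Cy5 over Cy3, the VB litters stood at 0.25, 0.43, 0.31 and 0.70 and the cortex litters at -0.42, 0.16 and -0.13. The VB mean of 0.42, mutant over control, passed (adjusted p = 0.00393), the cortex mean of -0.13 did not (adjusted p = 0.764), and neither did their difference of 0.56 (adjusted p = 0.0585), although it passed with quantile normalization, with arrays scaled to 1 interquartile range, with robust eBayes and with the 16 arrays kept apart. A positive ratio in a mutant with part of Rora deleted goes against the label only if the probe lies inside the deletion, and its position relative to the deletion was not tested. Rora stood at 0.29 and -0.56 in the mean of the VB arrays with the mutant in Cy5 and in Cy3, and at -0.58 and -0.32 in cortex.

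**Figure D1:**
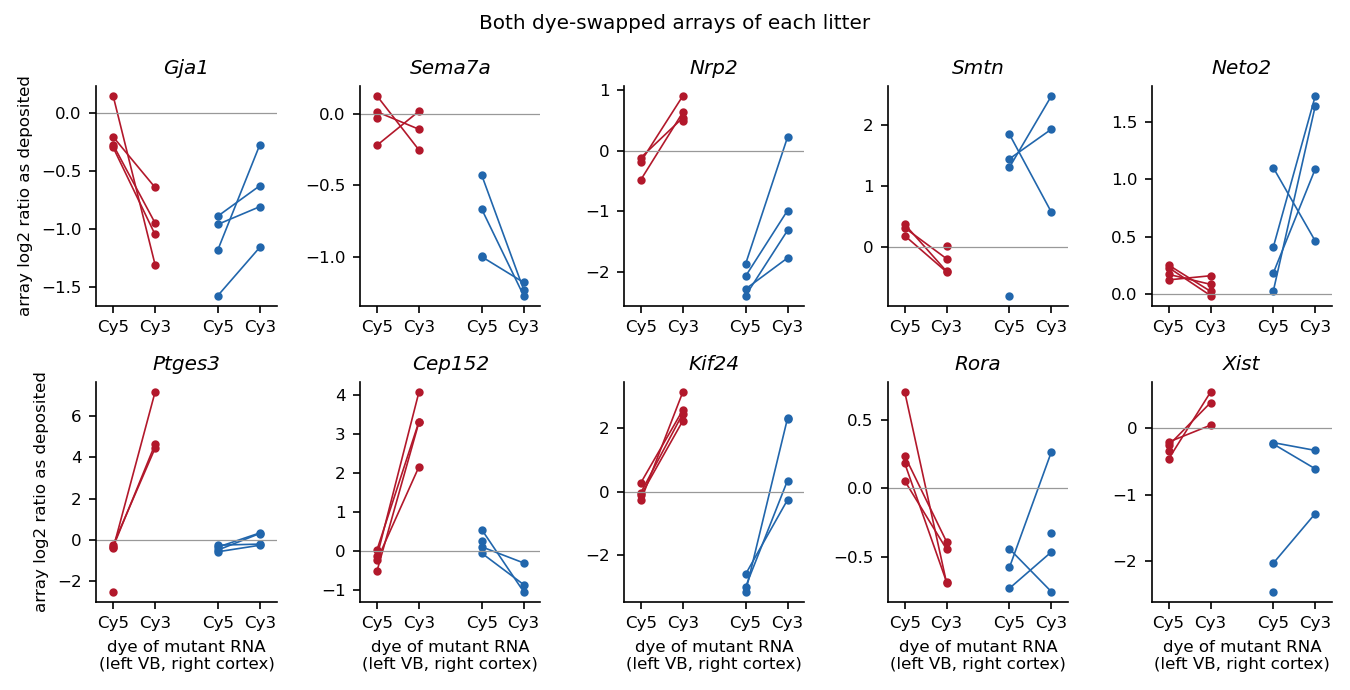
Array log2 ratios as deposited (vertical axis) for 10 genes, with VB in red on the left and cortex in blue on the right, each split by the dye of the mutant RNA, and a line joining the swapped arrays of a litter. Gja1, Sema7a and Neto2 lie mostly on 1 side of 0 in cortex in both orientations, whereas Ptges3 and Cep152 in VB are near 0 or below with the mutant in Cy5 and far above 0 with the mutant in Cy3.

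The readings gave call numbers that differed widely. With columns taken as turned, the genotype ratio differed between the tissues for 18 of 12445 probes (0.145%; limma, Benjamini-Hochberg adjusted p under 0.05), 14 with VB above cortex (0.112%) and 4 with cortex above VB (0.0321%). The litters of VB and cortex did not overlap for 1132 probes (9.1%). The mean over both tissues differed from 0 for 27 probes (0.217%; 0.121% positive and 0.0964% negative), VB alone for 40 (0.321%; 0.257% positive and 0.0643% negative) and cortex alone for 19 (0.153%; 0.0321% positive and 0.121% negative). With quantile normalization the splits of positive to negative were 5 to 3 for the difference, 11 to 14 for the mean and 8 to 7 for VB, against 14 to 4, 15 to 12 and 32 to 8. The cortex split of 4 to 15 became 106 to 79 without litter 4 and 106 to 93 with the 16 arrays kept apart. Read as Cy5 over Cy3, the tissue difference was called for 554 probes (4.45%), 245 with VB above cortex (1.97%) and 309 with cortex above VB (2.48%). The litters did not overlap for 2021 probes (16.2%). The mean was then called for 949 (7.63%; 2.43% positive and 5.19% negative), VB for 2207 (17.7%; 7.46% positive and 10.3% negative) and cortex for 261 (2.1%; 0.538% positive and 1.56% negative). As turned, the litters of a probe had a median SD of 0.134 (VB) and 0.212 (cortex). As Cy5 over Cy3, it was 0.132 and 0.205.

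Across the 12445 probes, the mean ratio in VB and that in cortex had a Pearson r of 0.0123 and a Spearman correlation of 0.0138 as turned, with the same sign for 50.3% of probes. Read as Cy5 over Cy3, they had 0.317 and 0.133, with the same sign for 54.9%. Probes share arrays and are not independent replicates, so these values are descriptions. Among the 3774 probes with a value in all 8 litter ratios, 63 (1.67%) had 1 sign in every ratio and 45 (1.19%) had every VB litter on one side of 0 and every cortex litter on the other, as turned. The numbers were 207 (5.48%) and 149 (3.95%) as Cy5 over Cy3.

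**Figure D2:**
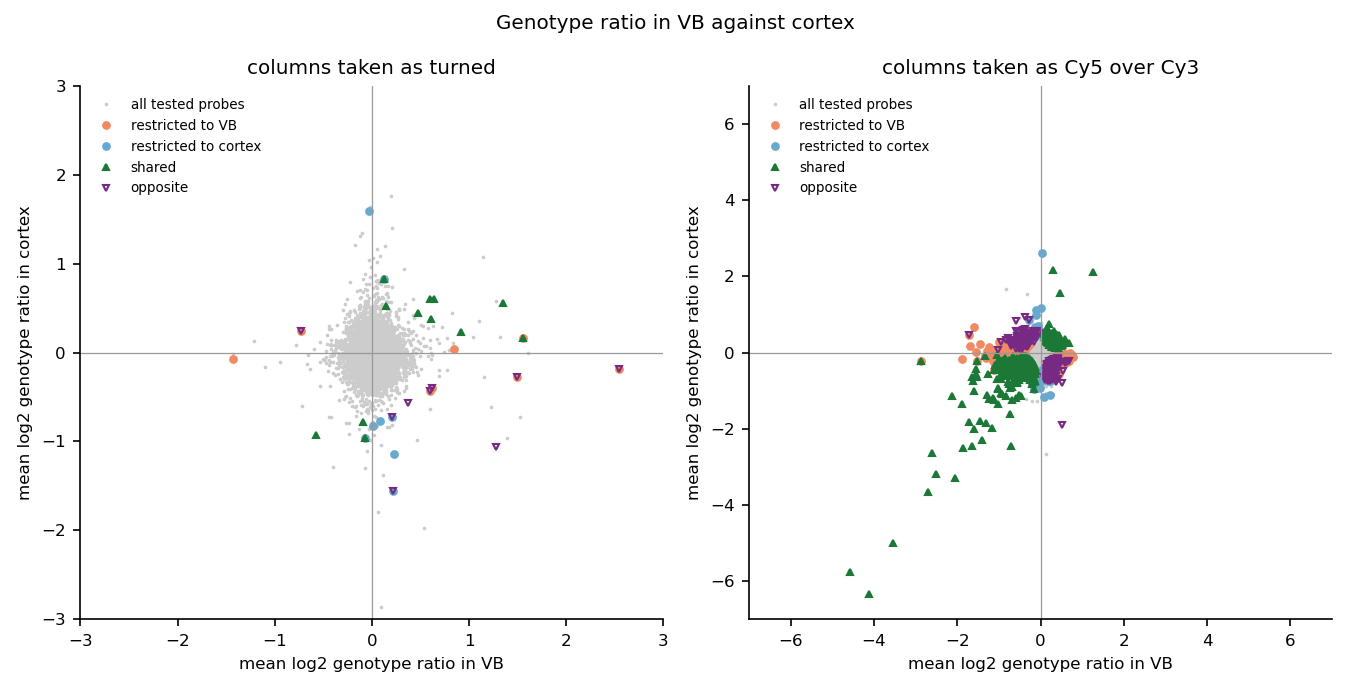
Mean log2 genotype ratio in VB (horizontal axis) against that in cortex (vertical axis) for 12445 probes, under each reading, with symbols for the classes of change. As turned, the cloud has no slope (r = 0.0123) and the classes hold few probes. As Cy5 over Cy3, the shared probes run down to the lower left, where Arhgef40 and Cited4 lie.

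With columns taken as turned, 8 probes were restricted to cortex, that is, called in cortex and for the difference but not in VB, and all 8 had a symbol. A pair of axon guidance genes was among them. Nrp2 encodes neuropilin-2, a co-receptor of class 3 semaphorins. Its cortex litters stood at -1.85, -2.02, -0.82 and -1.53, against 0.36, 0.21 and 0.077 in the 3 VB litters measured. The tissues did not overlap, and the difference was 1.77 ± 0.23 log2 units (SE; limma adjusted p = 0.00831). With the mutant in Cy5 and in Cy3, the Nrp2 cortex mean was -2.15 and -0.96, negative in both. A second Nrp2 probe had a difference of 0.033 (adjusted p = 0.969), so the probes of this gene disagreed.

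Sema7a encodes a membrane-anchored semaphorin that has been tied to the wiring of barrels, and its second probe had a similar pattern. The first Sema7a probe stood at -0.97, -0.83 and -1.09 in the 3 cortex litters measured and at -0.046, -0.063 and -0.10 in VB, a difference of 0.89 ± 0.14 (adjusted p = 0.0329). The second Sema7a probe had -0.93, -0.48, -0.71 and -1.02 in the 4 cortex litters and -0.11, -0.051 and -0.10 in VB. Its difference of 0.70 did not pass (adjusted p = 0.131), but its cortex mean did (-0.79 ± 0.24 (SD, n = 4); adjusted p = 0.016). Both Sema7a probes were negative in cortex with the mutant in Cy5 (-0.77 and -0.95) and in Cy3 (-1.23 and -0.62). Since every VB litter was also slightly below 0, both probes met the definition of a shared change by their mean over the tissues (-0.52, adjusted p = 0.0129, and -0.44, adjusted p = 0.0315), although the VB means did not pass.

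Positive ratios restricted to cortex were found for Smtn and Neto2. Smtn encodes smoothelin, a cytoskeletal protein of contractile smooth muscle and so a gene of vessel walls. It stood at 1.89, 1.20 and 1.68 in the 3 cortex litters with both arrays and at -0.12, 0.055 and -0.021 in VB, a difference of -1.62 ± 0.18 (adjusted p = 0.00289). The litter left out had 1 cortex array, with -0.80, of opposite sign to the others. Smtn was the only called gene among the 12 vascular probes tested. Neto2, an auxiliary subunit of kainate receptors, had 1.07, 0.83, 0.64 and 0.78 in cortex and 0.13, 0.14, 0.11 and 0.14 in VB, and its difference was -0.70 ± 0.12 (adjusted p = 0.0394). No litter ratio of Neto2 in VB exceeded any in cortex. Rgs4, a regulator of G protein signalling, had 0.65, 0.88 and 1.08 in cortex and -0.10, -0.14, 0.19 and 0.18 in VB, with nearly equal cortex means in both orientations (0.88 and 0.86), and its difference of -0.84 missed the threshold (adjusted p = 0.0537).

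The other 4 genes restricted to cortex were negative there. The forkhead transcription factor gene Foxo3 had -0.63, -1.05, -0.70 and -0.68 in cortex and -0.068, 0.0080, 0.017 and 0.36 in VB, a difference of 0.84 (adjusted p = 0.0291), while its second probe had 0.24 (adjusted p = 0.567). Ppara, a nuclear receptor for fatty acids, stood at -1.02, -0.60, -0.89 and -0.37 and 0.27, 0.018, 0.16 and 0.37, a difference of 0.92 (adjusted p = 0.0291). Cyria, whose product binds the GTPase RAC1, had -1.26, -0.82, -0.60 and -0.64 and 0.10, 0.037, -0.067 and -0.017, a difference of 0.85 (adjusted p = 0.0394). Foxo3, Ppara and Cyria each kept a negative cortex mean in both orientations. Slc25a1, the mitochondrial citrate carrier, had -1.25, -1.38 and -0.81 and 0.50, 0.37 and -0.20, a difference of 1.37 (adjusted p = 0.0291). Its cortex mean was 0.72 with the mutant in Cy5 and -3.26 with the mutant in Cy3, so its negative value came from 1 orientation alone.

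Another 8 probes were restricted to VB, 7 of them with a symbol, and these rested more on 1 dye orientation. Ptges3, the Hsp90 co-chaperone p23, had the largest difference of the named genes as turned. Its VB litters stood at 2.10, 2.15 and 3.38 and its cortex litters at -0.091, -0.0055, -0.42 and -0.23, a difference of 2.73 ± 0.25 (limma adjusted p = 0.000464). The VB arrays with the mutant in Cy3 had 4.44, 4.63 and 7.16, and those with the mutant in Cy5 had -0.24, -0.34, -0.41 and -2.51, of opposite sign. Cep152, a scaffold of centriole duplication, had 1.67, 1.39, 1.96 and 0.96 in VB and -0.25, -0.46 and -0.10 in cortex, a difference of 1.77 ± 0.20 (adjusted p = 0.00289). The VB means of Cep152 were -0.21 and 3.21 with the mutant in Cy5 and in Cy3. The same split by orientation held for Actr2, a subunit of the actin-nucleating Arp2/3 complex (-0.18 and 3.08, difference 1.39, adjusted p = 0.0482), and for Ap2a2, a subunit of the clathrin adaptor AP-2 (-0.10 and 1.80, difference 0.81, adjusted p = 0.0444). The second Ap2a2 probe had a difference of -0.22 (adjusted p = 0.707).

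Iltifb was negative in all VB litter values and in the VB mean of each orientation, with 1 of 8 VB arrays positive. It is a close copy of the cytokine gene Il22, and whether the probe separates the copies was not tested. Its VB litters stood at -1.81, -2.08, -0.73 and -1.12 and its cortex litters at 0.13, -0.092, 0.074 and -0.39, a difference of -1.36 ± 0.24 (adjusted p = 0.0439), and its VB mean was -0.84 and -2.03 in the 2 orientations. H3c14, 1 of many near-identical histone H3 genes, had 0.84, 0.39 and 0.55 in VB and -0.56, -0.31, -0.49 and -0.38 in cortex (difference 1.03, adjusted p = 0.0133), with VB means of -0.35 and 1.5. Trim46, which bundles microtubules at the start of axons, had 0.49, 1.06, 0.56 and 0.36 and -0.26, -0.55, -0.30 and -0.49 (difference 1.02, adjusted p = 0.0181), with VB means of -0.66 and 1.90. Below the threshold with cortex above VB stood Ccnd3, a cyclin of the G1 phase (-1.34, adjusted p = 0.0537). Kif21b, a kinesin (-0.86, adjusted p = 0.0715), Cdk5r1, the activator p35 of the kinase CDK5 (-0.64, adjusted p = 0.102), and Hnrnpc, an RNA-binding protein (-0.68, adjusted p = 0.131), did not pass either. These 4 genes and Rgs4 passed where only arrays with mutant RNA in Cy3 were used.

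**Figure D3:**
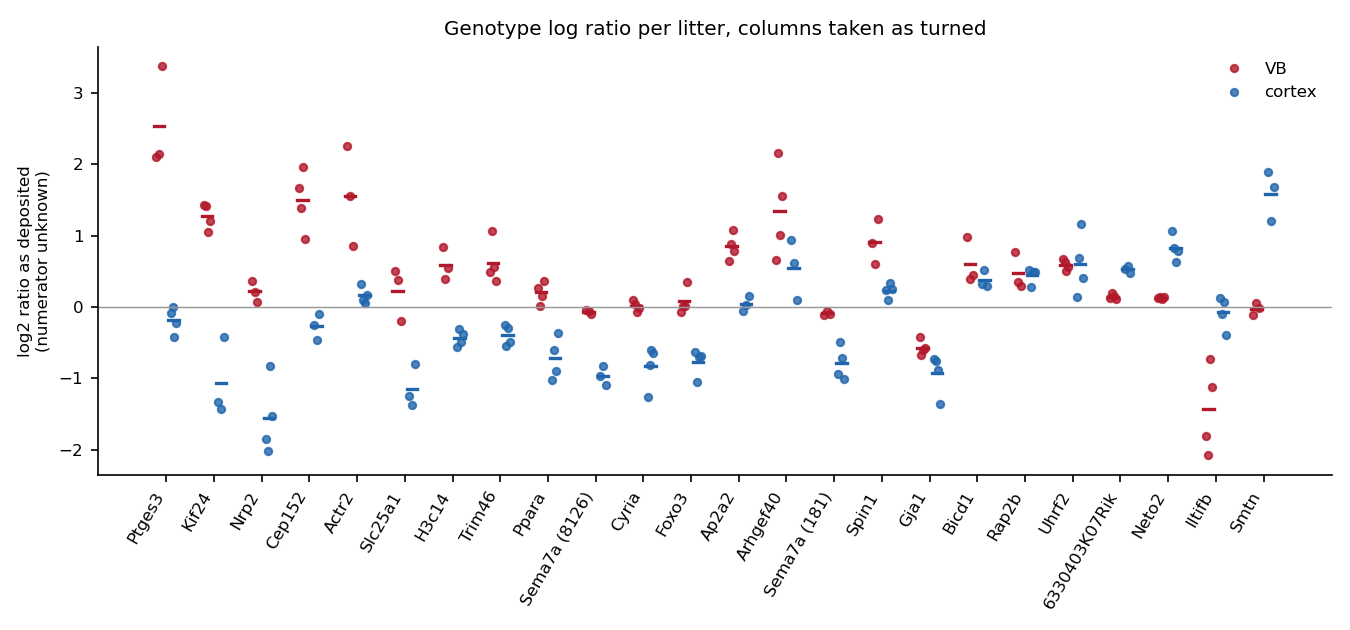
Log2 genotype ratio per litter, columns taken as turned (vertical axis, numerator unknown), for the genes named as different, restricted or shared, with VB in red, cortex in blue, 1 point per litter and a bar at the mean. Genes run from the largest positive to the largest negative difference of VB minus cortex. Gja1 lies below 0 in all 8 litter ratios, and Nrp2, Sema7a and Foxo3 are low in cortex alone.

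Shared changes as turned comprised 12 probes, 9 positive and 3 negative in both tissues. Gja1 was the 1 probe called with the same sign in both tissues by their separate fits. It encodes connexin 43, the main gap junction protein of astrocytes. Its ratios were -0.42, -0.67, -0.61 and -0.58 in VB and -0.73, -0.76, -0.88 and -1.36 in cortex, negative in every litter. The mean over tissues was -0.75 ± 0.074 (SE; adjusted p = 0.000839), and the difference of 0.36 did not pass (adjusted p = 0.484). The Gja1 mean was negative in each orientation of both tissues (-0.16 and -0.98 in VB, -1.15 and -0.72 in cortex). Ednrb, the endothelin receptor of astrocytes and their precursors, had a mean of -0.66 (adjusted p = 0.0497) but 0.058, -1.22 and -0.65 in the 3 cortex litters, so it was not in the class. Gja1 and Ednrb were the 2 called of 17 astrocyte probes, whose median ratio was -0.02 in VB and -0.15 in cortex.

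The positive shared probes were mostly of mixed sign within a pair. Uhrf2, which binds hydroxymethylated DNA, had a mean of 0.60 (adjusted p = 0.0143), yet its arrays averaged -1.47 and 2.65 in VB and -2.69 and 3.9 in cortex with the mutant in Cy5 and in Cy3. Arhgef40 had a mean of 0.95 (adjusted p = 0.0219) from -3.24 and 5.93 in VB and -5.22 and 7.05 in cortex. Bicd1, a dynein adaptor (mean 0.49, adjusted p = 0.0497), and Spin1, a reader of methylated histones (0.57, adjusted p = 0.0121), also had a negative mean with the mutant in Cy5 in at least 1 tissue. The second Spin1 probe had 0.12 (adjusted p = 0.591). Rap2b, a small GTPase, had 0.46 (adjusted p = 0.0268) and 6330403K07Rik had 0.34 (adjusted p = 0.0472). Both of these genes, like Neto2, had a positive mean in each orientation of each tissue, although single arrays were negative. Actr2, Neto2 and the first Sema7a probe were in the shared class and also had a called difference.

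Opposite changes as turned comprised 9 probes, 8 with VB positive and cortex negative, and 7 of the 9 were also restricted to 1 tissue by the separate fits. Kif24, a kinesin that limits the growth of cilia from centrioles, was the 1 probe called in both tissues with opposite signs. It stood at 1.43, 1.42, 1.05 and 1.21 in VB and -1.33, -1.43 and -0.42 in cortex, a difference of 2.34 ± 0.21 (adjusted p = 0.000464). Its arrays averaged -0.037 and 2.59 in VB and -2.92 and 1.17 in cortex with the mutant in Cy5 and in Cy3. Ptges3, Cep152, H3c14, Trim46, Nrp2 and Ppara were the other named members. The smaller of their tissue means were close to 0 for several of them, such as 0.22 for Nrp2 in VB and -0.19 for Ptges3 in cortex, and did not pass.

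These classes assume that the turned columns run the same way in both tissues. In VB the first set of arrays had the mutant in Cy5, and in cortex the first set had it in Cy3. If the swapped set of each tissue was turned to its own first set, VB and cortex would run in opposite directions. The difference and the sum would then exchange places, so that 27 probes would differ between the tissues and 18 would have a called mean. Gja1 would then be opposite and Kif24 shared. The calls restricted to 1 tissue rest on separate fits against 0, but their test of the difference would change too. Which case holds was not tested.

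Promoters of the 23 genes named above as different, shared, opposite or restricted under the turned reading were searched for the letters of the RORα site. The window ran from 250 bases before to 50 after each start in RefSeq (GRCm38.p6), all 23 genes had at least 1 window, and the letters searched were AGGTCA on either strand, with no other motif. They were found in 3 of 28 windows (10.7%), those of Iltifb, Spin1 and Uhrf2, against 16.3% of all 32851 windows. The stretches below are shown because they are the members' only matches. Each runs 5′ to 3′ on the strand of the gene with 20 bases on either side, and the capitals mark the match, which lies on the opposite strand in each and so reads TGACCT.
Iltifb: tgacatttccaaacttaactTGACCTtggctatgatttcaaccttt
Spin1: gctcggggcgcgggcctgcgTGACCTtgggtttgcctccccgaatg
Uhrf2: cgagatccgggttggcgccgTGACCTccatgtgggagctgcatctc
The Iltifb stretch is chr10:118295128-118295173 on the minus strand, and its match begins 115 bases before the start. The Spin1 stretch is chr13:51101392-51101437 on the plus strand with the match 135 bases before the start. The Uhrf2 stretch is chr19:30030445-30030490, also on the plus strand, with 48 bases to the start. A match is a run of letters and not a measured binding site.

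Gene lists for the pathway and for cell types gave few calls as turned. The 27 lists held 281 tested genes on 296 probes, of which 5 were called for the difference (1.69%, against 0.145% of all probes). The lists were drawn up with earlier results of these data known, so this share is no independent evidence. In axon guidance 2 of 22 probes were called, Nrp2 and Sema7a, and Sema7a was also the 1 called of 22 barrel formation probes. Kif24 and Cep152 were the 2 called of 17 cell cycle probes, and the other 23 lists had no called difference. Limma called none of the 10 thalamic nucleus probes, 4 of which had an unadjusted p under 0.05, and their median difference was -0.13 log2 units against 0.01 over all probes. None of the 11 layer 4 probes was called either, 6 of which had an unadjusted p under 0.05, with a median of 0.26 and 8 of 11 positive. Of all 12445 probes, limma gave 1127 an unadjusted p under 0.05, and 6522 had a positive difference. The 19 probes of immature neurons had a median of -0.22, and the 8 probes of ROR and clock genes had 0.10, with 7 of 8 positive. For the mean over tissues, Stmn1, the microtubule-destabilizing stathmin of growing neurons (0.98, adjusted p = 0.0497), Sncb, the presynaptic β-synuclein (-0.57, adjusted p = 0.0472), and Rgs4 (0.45, adjusted p = 0.0293) were called. These calls held in 7 of 17, 9 of 16 and 12 of 16 alternatives within the reading. The Stmn1 cortex arrays ran from 2.27 to 6.00 with the mutant in Cy3 and from -0.70 to 0.58 with the mutant in Cy5. Its VB arrays ran from -0.62 to 1.17.

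Read as Cy5 over Cy3, the genotype ratio runs as mutant over control, and the largest positive difference of VB minus cortex among the named genes was that of Stmn1. Its VB litters stood at 0.90, 0.40, 0.66 and 0.10, all above control, and its cortex litters at -2.71, -1.74, -1.48 and -1.71, all below, a difference of 2.42 ± 0.22 (SE; limma adjusted p = 1.23e-05). The same order was called for Gnao1, the neuronal G protein αo (0.50 in VB, -0.80 in cortex, adjusted p = 0.000186), and for Kif2a, a microtubule-depolymerizing kinesin (0.54 and -0.48, adjusted p = 0.00124). Rbfox1, a neuronal splicing factor, had 0.42 and -0.69 (adjusted p = 0.00109), but its second probe had a difference of 0.17 (adjusted p = 0.642). Tnpo2, a nuclear import receptor, had 0.38 and -0.71 (adjusted p = 0.000751), and Caprin1, a protein of RNA granules, 0.24 and -0.54 (adjusted p = 0.000909). Dusp8, a phosphatase of MAP kinases, had 0.24 and -0.75 (adjusted p = 0.000614), and its second probe had a difference of 0.44 (adjusted p = 0.126). In Il6st, the cytokine receptor subunit gp130, both tissues were below control, by more in cortex (-0.70 and -2.45, adjusted p = 0.000614). The cortex value of Stmn1 came mostly from 1 orientation. Its cortex arrays had 6.00, 3.14, 2.27 and 3.30 with the mutant in Cy3 and 0.58, -0.34, -0.70 and -0.12 with the mutant in Cy5.

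In the other direction, Galr3, a receptor of the neuropeptide galanin, stood at 2.84, 3.26, 2.06 and 2.32 in cortex and 0.19, 0.17, -0.078 and -0.13 in VB, a difference of -2.58 ± 0.20 (adjusted p = 1.89e-06). The tissues did not overlap, and the VB mean did not pass (adjusted p = 0.76). Kcnk3, the leak potassium channel TASK-1, was below control in VB (-0.38) and above it in cortex (0.94, adjusted p = 9.35e-05 for the difference). Many of this group were low in VB with a cortex mean near 0. They include Ptges3 (-2.87 in VB, -0.23 in cortex, adjusted p = 2.06e-05), Arl16, a small GTPase (-1.89 and -0.18, adjusted p = 1.71e-05), and Stx19, a syntaxin (-1.30 and 0.053, adjusted p = 0.000111). Sae1, a subunit of the SUMO-activating enzyme, had -1.24 and 0.15 (adjusted p = 0.000178). Fbxo31, a ubiquitin ligase subunit, had -0.82 and 0.33 (adjusted p = 0.000143). Its cortex ratio was above control in every litter, which made it an opposite change. Tmem81 had -1.06 and -0.037 (adjusted p = 0.000178). Vmn1r17, a receptor of the vomeronasal organ, had -1.32 and -0.14 (adjusted p = 0.000143).

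The classes as Cy5 over Cy3 held 490 shared probes, 339 of them below control in both tissues, and 246 opposite probes, 138 with VB above control and cortex below. The restricted classes held 366 probes for VB and 77 for cortex, and 173 of the opposite probes were also restricted to 1 tissue. By the separate fits, 86 probes were called in both tissues with the same sign, 81 of them negative, and 30 with opposite signs. A further 1725 were called in VB and 68 in cortex without a called difference, so a call in 1 tissue alone did not show restriction.

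Besides Stmn1, Gnao1, Kif2a, Rbfox1 and Cep152 (-1.71 in VB and 0.47 in cortex, adjusted p = 1.4e-05 for the difference), 7 genes had the largest opposite ratios, all below control in VB and above it in cortex. These were Camkmt, the methyltransferase of calmodulin (-0.60 and 0.82, adjusted p = 0.000241), Fam83d, a spindle protein (-0.60 and 0.55, adjusted p = 0.000857), and Ankrd11, a chromatin regulator (-0.57 and 0.44, adjusted p = 0.00455). Kcnip3, a calcium-binding partner of potassium channels, had -0.46 and 0.42, adjusted p = 0.00697. The RING finger genes Rnf208 (-0.54 and 0.54, adjusted p = 0.00119) and Rnf123 (-0.48 and 0.41, adjusted p = 0.00202) and the membrane protein gene Tmem160 (-0.42 and 0.59, adjusted p = 0.000275) completed them.

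The shared genes of largest ratio were all but 1 far below control in both tissues, and the arrays with the mutant in Cy3 had a positive mean in both tissues for each of these. Cited4, a co-regulator that binds CBP and p300, stood at -4.48, -3.80, -4.06 and -4.11 in VB and -5.39, -7.48 and -6.19 in cortex (mean -5.23 ± 0.16; adjusted p = 6.34e-13), and its difference of 2.24 was called too (adjusted p = 0.000741). Arhgef40 had -4.59 and -5.77 in VB and cortex (difference 1.18, adjusted p = 0.155). Uhrf2 had -2.06 and -3.30, with a called difference of 1.24 (adjusted p = 0.000761). Iars, the isoleucyl-tRNA synthetase, had -2.69 and -3.67 (difference 0.98, adjusted p = 0.00656), but the second Iars probe had a mean of -0.070 (adjusted p = 0.529). Epb41l4b, a band 4.1 family protein, had -1.64 and -2.45 (difference 0.81, adjusted p = 0.0119). The tissue differences of the next 6 did not pass. Fbxw8, a ubiquitin ligase subunit, had -2.62 and -2.65, Mrln, the micropeptide myoregulin, -1.86 and -2.51, and Gas8, a subunit of the dynein regulatory complex of cilia, -1.46 and -1.79. Kif24 had -1.31 and -1.85, Zbtb39, a zinc finger gene, -1.24 and -1.22, and 1700037C18Rik -2.51 and -3.19. Slc25a1 was the exception, above control in both (1.25 and 2.11; difference -0.86, adjusted p = 0.0736).

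Restricted to VB under this reading, besides Ptges3, Cep152, Arl16 and Sae1, were Minpp1, an inositol phosphate phosphatase (-1.70 and 0.18, adjusted p = 0.000671 for the difference), Nme1, a nucleoside diphosphate kinase (-1.55 and 0.0034, adjusted p = 0.001), Lars2, the mitochondrial leucyl-tRNA synthetase (-1.45 and 0.22, adjusted p = 0.00183), and Ssmem1 (-1.59 and 0.66, adjusted p = 0.022). The Ssmem1 litters ranged widely, at -2.68, -1.99 and -0.12 in VB and -0.15, 1.93 and 0.20 in cortex. Restricted to cortex, besides Galr3 and Dusp8, were Mon2, a regulator of trafficking (0.086 and -1.16, adjusted p = 0.0196), Spaar, a lysosomal micropeptide (0.0071 and 1.18, adjusted p = 0.00366), and Atrx, a chromatin remodeller (-0.28 and 0.85, adjusted p = 0.00326). Abhd16a, a phospholipase (-0.11 and 0.98, adjusted p = 0.00426), Snhg11, a host gene of small nucleolar RNAs (-0.12 and 1.12, adjusted p = 0.000364), and Cadm2, a synaptic adhesion protein (0.29 and -0.72, adjusted p = 0.00174), belonged here as well. The second probes of Snhg11 and Cadm2 had differences of -0.13 (adjusted p = 0.706) and -0.17 (adjusted p = 0.558). The second Minpp1 probe had -0.27 (adjusted p = 0.334). Snhg11 had a cortex mean of 0.19 with the mutant in Cy5 and -2.05 with the mutant in Cy3. The Mon2 cortex arrays had 4.99, 2.67, 0.69 and 1.70 with the mutant in Cy3 and ran from -0.24 to 0.62 with the mutant in Cy5. Minpp1 had VB means of -0.425 with the mutant in Cy5 and 3.25 with it in Cy3. The Ssmem1 VB arrays ran from -0.326 to 0.141 with the mutant in Cy5 and had 5.32, 3.65 and 0.376 with it in Cy3. The Lars2 VB arrays had -0.11, -3.93, -0.039 and -0.10 with the mutant in Cy5 and 3.34, 0.28 and 0.95 with it in Cy3. Atrx in cortex had -0.68, -0.37, 0.53 and 0.30 with the mutant in Cy5 and -2.03, -1.445 and -2.40 with it in Cy3.

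**Figure D4:**
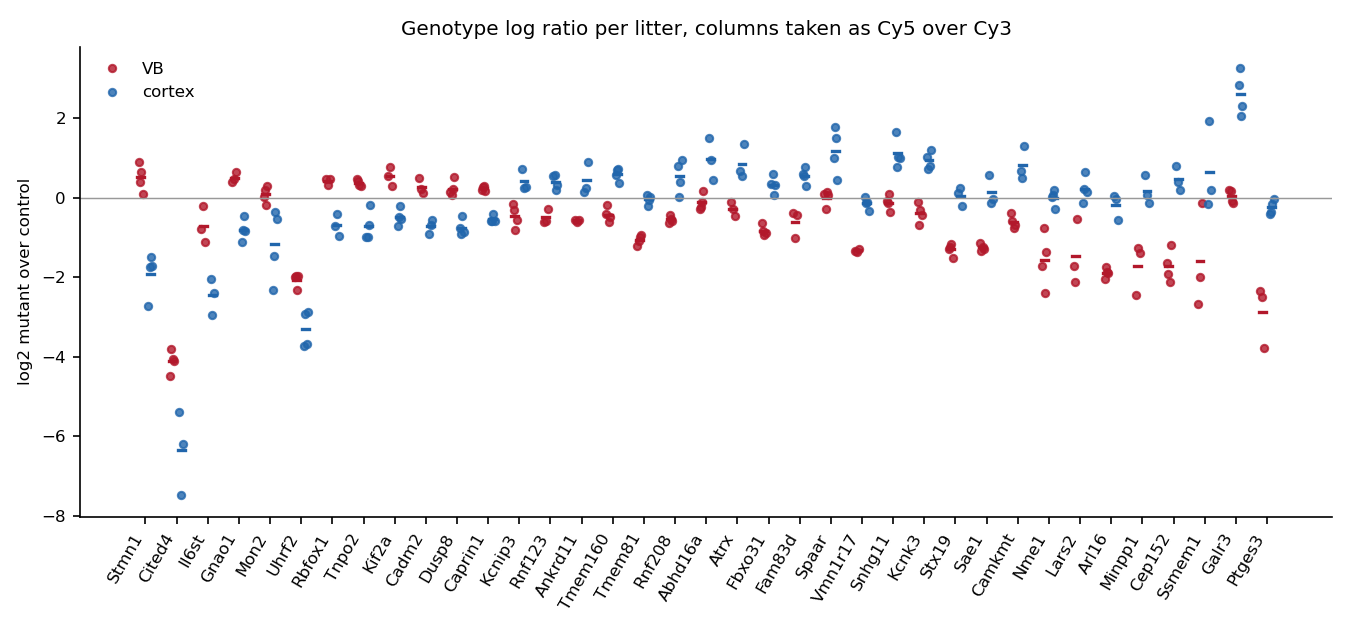
Log2 mutant over control per litter (vertical axis), columns taken as Cy5 over Cy3, for the genes named as different, opposite or restricted, with VB in red, cortex in blue, 1 point per litter and a bar at the mean. Genes run from the largest positive to the largest negative difference of VB minus cortex, from Stmn1 at the left to Ptges3 at the right.

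Of the 296 list probes, 17 had a called difference as Cy5 over Cy3 (5.74%, against 4.45% of all probes). Among 10 thalamic probes, Slc6a4, the serotonin transporter that thalamic axons carry at this age, stood at 0.47, 0.67 and 0.81 in VB and -0.14, -0.45 and -0.081 in cortex (difference 0.88, adjusted p = 0.0044). Cplx1, a complexin of transmitter release (0.50, adjusted p = 0.0306), ran the same way, and Cdh8, a cadherin (-0.59, adjusted p = 0.0281), the other way. Of 22 barrel formation probes, Slc6a4, Nptx2, a pentraxin induced by activity (0.56, adjusted p = 0.032), and Prkar2b, a regulatory subunit of protein kinase A (0.49, adjusted p = 0.0362), were called, all with VB above cortex. The list as a whole did not lean this way, with 10 differences positive, 12 negative and a median of -0.041. Of the 11 layer 4 probes, Pou3f2, a transcription factor of upper-layer neurons (-0.64, adjusted p = 0.0289), was called besides Cdh8, which is on both lists. Neuronal maturation had 2 of 13 called, Mapt, the axonal protein tau (0.71, adjusted p = 0.00183), and Syn1, synapsin I (0.51, adjusted p = 0.0421), and 10 of its 13 differences were positive, with a median of 0.20 against -0.01 over all probes. Cplx2, a second complexin, had -0.51, adjusted p = 0.0286, Plxna1, a semaphorin receptor, 0.62, adjusted p = 0.0108, and Draxin, a guidance protein, -0.78, adjusted p = 0.0119. In the lists of other cell types, Gja1 (0.63, adjusted p = 0.0139), Sox10, a factor of the oligodendrocyte lineage (-0.53, adjusted p = 0.0378), and Tk1, the thymidine kinase of dividing cells (0.55, adjusted p = 0.0172), were called. Arrdc2, an arrestin-domain gene listed as glucocorticoid-responsive, had -0.92, adjusted p = 0.00127. Limma called no microglial, vascular, blood, meningeal or neighbouring-region difference, with an unadjusted p under 0.05 for 2 of 8 neighbouring-region probes, 1 of 13 of choroid plexus and meninges and 0 in the other 3 lists. Among them, 6 of 7 microglial and 10 of 12 vascular differences were positive, with medians of 0.22 and 0.10 log2 units, as were 11 of 17 astrocyte differences (0.16). Of all 12445 probes under this reading, limma gave 2296 an unadjusted p under 0.05, and 6007 had a positive difference.

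The mean over both tissues was called for 27 of the 296 list probes (9.12%, against 7.63% of all probes). Homer1, a postsynaptic scaffold that binds group I glutamate receptors, had the largest mean after Kif24 (-1.22, -0.57, -1.04 and -1.31 in VB and -1.21, -0.99 and -0.70 in cortex, mean -1.0, adjusted p = 1.01e-06). Synaptic genes below control were Syt1 (-0.47, adjusted p = 0.000224) and Syt4 (-0.73, adjusted p = 0.014), which encode synaptotagmins, Grm3, a glutamate receptor (-0.47, adjusted p = 0.00122), and Cacng2, the AMPA receptor partner stargazin (-0.28, adjusted p = 0.0426), whose second probe had -0.045 (adjusted p = 0.713). Adcy1, the adenylyl cyclase whose loss disrupts barrels, had -0.28, adjusted p = 0.0425, but its second probe had 0.18 (adjusted p = 0.12). Of the guidance genes, Nrp2 (-0.53, adjusted p = 0.000599), its ligand gene Sema3f (-0.43, adjusted p = 0.00241) and Lrrc4c, a netrin-G ligand (-0.39, adjusted p = 0.012), were below control, and the second Nrp2 probe had -0.046 (adjusted p = 0.769). Klf4, an activity-regulated zinc finger gene (-0.36, adjusted p = 0.0141), was below as well. Nrn1, neuritin (0.23, adjusted p = 0.0471), and Sp8, a factor of interneurons (0.25, adjusted p = 0.0476), were above. The mean was called for 2 of 15 synaptic vesicle probes, 1 of 14 glutamate and GABA receptor probes and 3 of 22 axon guidance probes. The median ratios of these lists in VB and cortex were -0.0062 and -0.073, -0.043 and -0.0885, and -0.0097 and 0.031. Over all probes they were 0.006 and 0.0072.

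Markers of other cells and of metabolism also had called means. Gjb6, the astrocyte connexin 30 (-0.32, adjusted p = 0.0223), and Laptm5, a microglial gene (-0.28, adjusted p = 0.0217), were below control, and Nkx2-2, of the oligodendrocyte lineage (0.33, adjusted p = 0.0105), and Hbb-bt, a β-globin of blood (0.34, adjusted p = 0.0234), were above. Each was the 1 called of its list, of 17 astrocyte, 7 microglial, 8 oligodendrocyte-lineage and 3 blood probes. The astrocyte list had a median of 0.090 in VB and -0.094 in cortex, and Gja1 had a mean of 0.10, adjusted p = 0.403. The medians in VB and cortex were -0.025 and -0.13 for the microglial list and -0.0064 and 0.021 for the oligodendrocyte lineage. For blood they were -0.051 and -0.00038, not above 0 as Hbb-bt was. Of the 13 choroid plexus and meninges probes, Igfbp2 (-0.35, adjusted p = 0.00392) and Folr1 (-0.32, adjusted p = 0.0272) were below and Col1a2, a collagen (0.33, adjusted p = 0.014), above. Ccnd3 (0.29, adjusted p = 0.0348) and Idi1, an enzyme of cholesterol synthesis (0.28, adjusted p = 0.0349), were above, and Mt2, a metallothionein (-0.33, adjusted p = 0.011), was below. The part of these cells in other results was not tested.

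Calls common to the readings were a large share of the turned calls and a small share of the Cy5 over Cy3 calls. For the tissue difference 9 probes were called under both, which is 50% of the turned calls and 1.62% of the Cy5 over Cy3 calls. The named ones are Ptges3, Ap2a2, Cep152, Iltifb, Foxo3, H3c14, Cyria and Actr2, and 1 probe had no symbol. For the mean over tissues the overlap was 15 probes (55.6% and 1.58%), for VB 33 (82.5% and 1.5%) and for cortex 9 (47.4% and 3.45%). Of all probes, 4.45% (difference), 7.63% (mean), 17.7% (VB) and 2.1% (cortex) were called as Cy5 over Cy3. A probe with a large value in 1 orientation and a small one in the other is far from 0 under both readings. Of the 18 differences called as turned, 11 (61.1%) had the same sign in both orientations, against 42.2% of all probes, and of the 554 called as Cy5 over Cy3, 20 (3.61%) did. The readings themselves favour these directions, so the shares are descriptions.

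Different probes of the same gene offer a comparison that the reading does not fix. For 466 genes with exactly 2 tested probes, the tissue differences of the probes had a Pearson r of 0.136 as turned and 0.157 as Cy5 over Cy3, with the same sign for 55.2% of genes under each. These values are descriptions over genes measured on the same arrays. Of 4 genes called by at least 1 probe as turned, none was called by both and 3 had the same sign. Of 50 such genes as Cy5 over Cy3, 2 were called by both and 33 (66%) had the same sign. In VB, as Cy5 over Cy3, 160 genes were called by at least 1 probe and 20 by both, 17 of these with the same sign.

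Single litters moved the number of called differences by more than most settings. As turned, 1 probe was called without litter 1, 3 without litter 2, 6 without litter 3 and 28 without litter 4, against 18 with all. As Cy5 over Cy3, the numbers were 192, 272, 277 and 233, against 554. Cortex alone as turned had 0 calls without litter 1, 1 without litter 2, 24 without litter 3 and 185 without litter 4, against 19. Limma still gave 766 cortex probes an unadjusted p under 0.05 without litter 1. With 3 litters the fit has fewer residual degrees of freedom.

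Of 34 calls named as turned, 6 passed without litter 1, 7 without litter 2, 12 without litter 3 and 23 without litter 4, and none changed sign. The Gja1 mean over tissues stayed called in all 17 alternatives run within that reading, between -0.85 and -0.65. The shared class itself was not formed again under the alternatives. With only the arrays carrying mutant RNA in Cy5, the Gja1 VB litters had -0.205, -0.296, -0.274 and 0.147, so not all had the same sign. Kif24 kept its difference in 14 of 16 alternatives and Ptges3 in 15 of 16, where it turned to -0.46 with only the arrays carrying mutant RNA in Cy5. Other calls held in fewer alternatives. These included the differences of Neto2 (6 of 17), Ap2a2 (6 of 16), Actr2 (7 of 16) and the first Sema7a probe (8 of 16). The means of Bicd1 (4 of 16) and 6330403K07Rik (6 of 16) were among them too. Of 90 calls named as Cy5 over Cy3, between 63 and 70 passed with 1 litter left out, and none changed sign. Those of Stmn1, Galr3, Kcnk3 and Caprin1 for the difference passed in all 15 alternatives within the reading.

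The same litter numbers are used in both tissues, and some named calls did not pass with litter number as a block. As turned, these were the differences of Slc25a1 (1.18, adjusted p = 0.126), Sema7a (0.84, adjusted p = 0.139), Neto2 (-0.70, adjusted p = 0.0668), Ap2a2 (0.88, adjusted p = 0.0668) and Cyria (0.85, adjusted p = 0.0645). The means of Rap2b (0.47, adjusted p = 0.0509), Bicd1 (0.46, adjusted p = 0.164), 6330403K07Rik (0.33, adjusted p = 0.135) and the second Sema7a probe (-0.39, adjusted p = 0.0679) were lost as well. As Cy5 over Cy3, the differences of Nptx2 (0.53, adjusted p = 0.129), Prkar2b (0.49, adjusted p = 0.051), Syn1 (0.54, adjusted p = 0.0595) and Sox10 (-0.51, adjusted p = 0.0826) did not pass with the block. Neither did the means of Nrn1 (0.22, adjusted p = 0.112), Adcy1 (-0.21, adjusted p = 0.125), Cacng2 (-0.31, adjusted p = 0.0602), Sp8 (0.25, adjusted p = 0.0604), Folr1 (-0.24, adjusted p = 0.0866) and Idi1 (0.29, adjusted p = 0.0737). Every one of these kept its sign.

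**Figure D5:**
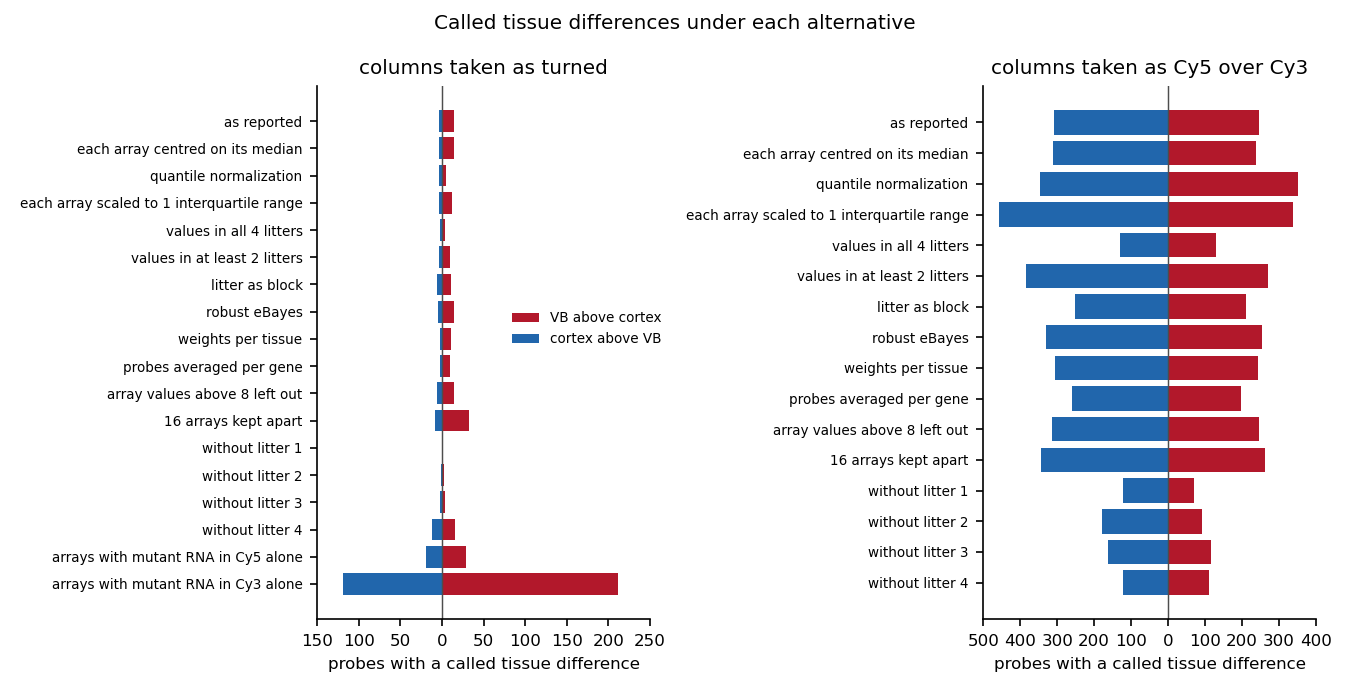
Number of probes with a called tissue difference (horizontal axis, red to the right for VB above cortex and blue to the left for cortex above VB) under the alternatives within each reading, without those that mix the readings, for columns taken as turned (left panel) and as Cy5 over Cy3 (right panel). As turned, the numbers lie between 1 and 48 except where only arrays carrying mutant RNA in Cy3 were used (330), and as Cy5 over Cy3 they lie between 192 and 793.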

How the data were processed

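Mutant and control RNA were compared on 16 arrays with a pair of dyes, 4 litters in VB and 4 in cortex with dyes swapped. The authors deposited 1 normalized ratio per probe and array on a log scale, per the value table of the series. The deposited values were taken as log2, a base that no source used here states. How they were scanned, background-corrected, normalized and filtered is not given in the sources used here. The number of arrays limits the precision, and depth does not apply. Probes were named through the platform annotation and RefSeq: 15685 by accession, 2963 by symbol, 1694 by synonym and 27 as deposited, and 3738 of 24107 had no symbol.

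Litter values were formed as described above under each reading. With limma 3.58.1 in R 4.3.3, the 8 litter values were fitted for the difference and the mean of the tissues (6 residual degrees of freedom for complete probes) and each tissue was fitted alone against 0, with eBayes and a two-sided test. P-values were adjusted by Benjamini-Hochberg over all 12445 probes, and 0.05 was the threshold. Probes of a gene were kept apart, and missing litters were left out, not imputed. The fits were tested on simulated data.

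A probe was shared if called in both tissues with 1 sign, or if the mean was called with 1 sign in every litter. It was opposite if called in both with opposite signs, or if the difference was called with the litters of the tissues on opposite sides of 0. It was restricted if called in 1 tissue and for the difference. Named were, per reading, the 10 smallest p per direction (where fewer than 5 passed, up to 5 that did not), the shared and opposite probes (at most 12 by the smaller tissue mean), 8 restricted probes per tissue by difference, Rora and sex-linked genes, and up to 3 called members per list. The members, the lists and these rules were chosen with earlier results of these data known.

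Litters carry the numbers 1 to 4 in VB and again in cortex, per the labels. The labels do not state whether a number marks the same litter in both tissues. The deviations of litters with the same number from the tissue means correlated at -0.00252, -0.0164, 0.00701 and 0.0152 over 3774 probes as turned. As Cy5 over Cy3, they correlated at -0.00101, -0.0138, -0.00695 and -0.0281. The fit with litter as a block changed the number of called means as turned from 27 to 46. Alternatives covered the scaling, the filter, each litter, weights, averaging per gene and single orientations.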

Additional observations from a re-analysis of the deposited data

Results flagged for a closer look

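In 6 of 150 groups of 4 litters among the named genes, 1 litter stood apart from the others (Dixon's test at its 95% critical value; chance alone gives about 5% of groups). Rap2b in cortex had 0.28 in litter 2, as turned. Ednrb in VB had -0.36 in litter 4, as turned. Uhrf2 in VB had -2.32 in litter 3, as Cy5 over Cy3. Caprin1 in cortex had -0.39 in litter 3, as Cy5 over Cy3. 1700037C18Rik in VB had -2.45 in litter 1, as Cy5 over Cy3. Grm3 in cortex had -0.11 in litter 4, as Cy5 over Cy3.

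Among the named genes, the tissue difference itself passed the test (limma, adjusted p under 0.05, VB minus cortex in log2 units) for the following. The genotype ratio differed between the tissues, VB above cortex, as turned, for Ptges3 (2.73), Kif24 (2.34), Nrp2 (1.77), Cep152 (1.77), Actr2 (1.39), Slc25a1 (1.37), H3c14 (1.03), Trim46 (1.02), Ppara (0.92) and Sema7a (0.89). Smaller differences of the same sign were those of Cyria (0.85), Foxo3 (0.84) and Ap2a2 (0.81).

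The genotype ratio differed between the tissues, cortex above VB, as turned, for Smtn (-1.62), Iltifb (-1.36) and Neto2 (-0.70).

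The genotype ratio differed between the tissues, VB above cortex, as Cy5 over Cy3, for Stmn1 (2.42), Cited4 (2.24), Il6st (1.75), Gnao1 (1.30), Mon2 (1.25), Uhrf2 (1.24), Rbfox1 (1.12), Tnpo2 (1.09), Kif2a (1.02) and Cadm2 (1.00). Smaller differences of the same sign were those of Dusp8 (0.98), Iars (0.98), Slc6a4 (0.88), Epb41l4b (0.81), Caprin1 (0.78), Mapt (0.71), Gja1 (0.63), Plxna1 (0.62), Nptx2 (0.56) and Tk1 (0.55). Next came Syn1 (0.51), Cplx1 (0.50) and Prkar2b (0.49).

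The genotype ratio differed between the tissues, cortex above VB, as Cy5 over Cy3, for Ptges3 (-2.64), Galr3 (-2.58), Ssmem1 (-2.25), Cep152 (-2.18), Minpp1 (-1.88), Arl16 (-1.71), Lars2 (-1.67), Nme1 (-1.56), Camkmt (-1.42) and Sae1 (-1.39). Smaller differences of the same sign were those of Stx19 (-1.35), Kcnk3 (-1.32), Snhg11 (-1.24), Vmn1r17 (-1.18), Spaar (-1.17), Fam83d (-1.16), Fbxo31 (-1.15), Atrx (-1.13), Abhd16a (-1.09) and Rnf208 (-1.08). Next came Tmem81 (-1.02), Tmem160 (-1.02), Ankrd11 (-1.01), Arrdc2 (-0.92), Rnf123 (-0.89), Kcnip3 (-0.88), Draxin (-0.78), Pou3f2 (-0.64), Cdh8 (-0.59) and Sox10 (-0.53). Below these stood Cplx2 (-0.51).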

How the results depend on the processing

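The counts of called probes rest first on the reading: 18 (difference), 27 (mean), 40 (VB) and 19 (cortex) as turned, against 554, 949, 2207 and 261 as Cy5 over Cy3. Centring each array, scaling it to 1 interquartile range, robust eBayes, weights per tissue and leaving out array values above 8 kept every count within 1.5 times; weights were applied to the difference and the mean only. Quantile normalization gave 8 (difference), 15 (VB) and 11 (cortex) as turned. A value in all 4 litters gave 6 (difference), 9 (mean), 20 (VB) and 9 (cortex) as turned and 259 (difference), 360 (mean), 753 (VB) and 138 (cortex) as Cy5 over Cy3. A value in at least 2 litters gave 66 (VB) as turned and 440 (cortex) as Cy5 over Cy3. The replicate block gave 46 (mean) as turned. Averaging the probes of a gene gave 13 (mean) and 9 (cortex) as turned. Keeping the 16 arrays apart (within-litter correlation 0.035) gave 42 (difference) and 199 (cortex) as turned and 1256 (VB) and 543 (cortex) as Cy5 over Cy3. Only the arrays carrying mutant RNA in Cy5 gave 48 (difference), 491 (mean), 728 (VB) and 75 (cortex) as turned. Only the arrays carrying mutant RNA in Cy3 gave 330 (difference), 360 (mean), 928 (VB) and 118 (cortex) as turned. Taking VB as turned and cortex as Cy5 over Cy3 gave 158 (difference) and 128 (mean). The reverse assignment gave 217 (difference) and 619 (mean). Leaving out 1 litter gave 1 to 28 (difference), 7 to 54 (mean), 15 to 72 (VB) and 0 to 185 (cortex) as turned, and 192 to 277 (difference), 467 to 564 (mean), 1540 to 1928 (VB) and 95 to 283 (cortex) as Cy5 over Cy3. At an adjusted p under 0.1 the class restricted to VB held 585 probes and that restricted to cortex 122, as Cy5 over Cy3. The 2 mixed readings and the turned direction of the cortex columns were chosen after seeing the data. Signal over background was not used here, so dim probes could not be left out. The cause of these changes was not tested.

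With litter as a replicate block, 17 differences and 46 means were called as turned and 463 and 740 as Cy5 over Cy3. The block moved 9 of 34 named calls below the threshold as turned and 10 of 88 as Cy5 over Cy3, and turned the direction of none.

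Among named genes as turned, the arrays with the mutant in Cy5 alone reversed the difference of Ptges3 (-0.46), Cep152 (-0.42), H3c14 (-0.19), Actr2 (-0.11), Ap2a2 (-0.087), Cyria (-0.021) and Uty (0.38). The same arrays reversed the mean of Uhrf2 (-2.08), Arhgef40 (-4.23), Bicd1 (-0.51), Spin1 (-0.0034), Actr2 (-0.12) and Cep152 (-0.0031). Those with the mutant in Cy3 alone reversed the difference of Rora (-0.23). Leaving out litter 1 turned Kdm5d to 0.0062 and Uty to 0.028, and leaving out litter 2 turned Kdm5d to 0.17; over the 4 litters left out in turn, Kdm5d ran from -0.26 to 0.17 and Uty from -0.16 to 0.028, and neither passed. Of the values named as turned, the other reading reversed the difference of Ptges3 (-2.64), Cep152 (-2.18), H3c14 (-1.22), Trim46 (-0.15), Slc25a1 (-0.86), Ppara (-0.50), Foxo3 (-0.66), Sema7a (-0.22), Smtn (0.38), Neto2 (0.47), Iltifb (0.63) and Ccnd3 (0.51). Next, it reversed the difference of Kif21b (0.44), Cdk5r1 (0.55), Hnrnpc (0.29), Actr2 (-1.29), Ap2a2 (-0.89), Cyria (-0.87), Uty (0.47) and Xist (-0.27). Of the values named as turned, the other reading reversed the mean of Uhrf2 (-2.68), Gja1 (0.10), Arhgef40 (-5.18), Bicd1 (-1.01), Spin1 (-0.63), Actr2 (-0.87), Neto2 (-0.17), the second Sema7a probe (0.030), Sema7a (0.15), Stmn1 (-0.70), Ednrb (0.28) and Cep152 (-0.62). Of the values named as Cy5 over Cy3, the other reading reversed the difference of Stmn1 (-1.57), Gnao1 (-0.44), Dusp8 (-0.46), Tnpo2 (-0.57), Uhrf2 (-0.0088), Caprin1 (-0.10), Rbfox1 (-0.59), Kif2a (-0.12), Galr3 (0.52), Cep152 (1.77), Arl16 (0.44) and Ptges3 (2.73). Next, it reversed the difference of Kcnk3 (0.64), Fbxo31 (0.35), Vmn1r17 (0.70), Tmem81 (0.34), Sae1 (0.48), Camkmt (0.35), Rnf208 (0.28), Ankrd11 (0.61), Tmem160 (0.36), Kcnip3 (0.22), Rnf123 (0.0050) and Ssmem1 (2.25). Further, it reversed the difference of Minpp1 (0.70), Lars2 (0.23), Nme1 (0.26), Mon2 (-1.46), Snhg11 (0.86), Spaar (0.32), Atrx (1.06), Uty (-0.085), Xist (0.79), Slc6a4 (-0.36), Cdh8 (0.37) and Cplx1 (-0.053). Last, it reversed the difference of Pou3f2 (0.26), Nptx2 (-0.035), Prkar2b (-0.14), Draxin (0.35), Mapt (-0.17), Syn1 (-0.026), Plxna1 (-0.32), Tk1 (-0.15) and Arrdc2 (0.68). Of the values named as Cy5 over Cy3, the other reading reversed the mean of Arhgef40 (0.95), Cited4 (0.21), Iars (0.47), Fbxw8 (0.51), 1700037C18Rik (0.27), Uhrf2 (0.60), Mrln (0.28), Epb41l4b (0.44), Gas8 (0.075), Kif24 (0.11), Slc25a1 (-0.46) and Zbtb39 (0.19). Next, it reversed the mean of Nrn1 (-0.075), Stmn1 (0.98), Draxin (0.19), Grm3 (0.44), Cacng2 (0.11), Sema3f (0.076), Lrrc4c (0.32), Gjb6 (0.081), Hbb-bt (-0.32), Col1a2 (-0.31), Cep152 (0.61) and Ccnd3 (-0.54). Further, it reversed the mean of Arrdc2 (0.12).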
